A study of Mus musculus with 24 samples.

Results

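Rab GTPases are small GTP-binding proteins, each resident on the membranes of particular organelles, and the genes that encode them were followed here as a family in mouse cerebral cortex. A gene was a member if its symbol was Rab followed by a number and at most 1 letter, and if it had 10 or more raw counts in at least 6 of 24 libraries. Of 43346 genes in the table, 58 had such a symbol and 55 met the count minimum. Rab17, Rab19 and Rab25 did not. The members are protein-coding genes spread over 18 chromosomes.

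The libraries came from 4 groups of 6 mice, with 1 library for each numbered animal. By genotype label the mice were control or Abca7, and by stimulus label they received either nothing (none) or LPS (lipopolysaccharide, a cell-wall component of Gram-negative bacteria that activates innate immune receptors). The design text of the series calls the Abca7 mice heterozygous and says that LPS was injected. For the allele, the strain, the dose and route of LPS and the interval before the tissue was taken, the sources used here give nothing. Unstimulated control mice were 55 to 57 days old, control mice given LPS 54 to 56, unstimulated mice labelled Abca7 55 to 58, and mice labelled Abca7 given LPS 54 to 56. Where mice of a group share a litter or a day of injection is not stated, so p-values measure the spread between these libraries.

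A Rab protein cycles between a GTP-bound form on a membrane and a GDP-bound form held in the cytosol. Exchange factors load GTP, GTPase-activating proteins end the active state, and effectors that bind only the GTP form carry out transport, tethering and fusion of vesicles. In the brain the family is best known for the synaptic vesicle cycle, for sorting of endocytosed receptors in neurons, and for the maturation of phagosomes and lysosomes in microglia. Abca7 codes for an ATP-binding cassette protein that moves lipids across membranes, and its human counterpart is a risk gene for Alzheimer disease.

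Library totals ran from 48149131 to 75741388 counts, and the members held 0.450% to 0.535% of them. Levels are given as CPM, counts scaled to the usual common library total after TMM correction of library sizes. Abca7 itself ran from 26.6 to 32.2 CPM in unstimulated control libraries (median 28.0), from 20.6 to 27.1 in control LPS libraries (median 25.6), from 29.9 to 34.8 in unstimulated labelled libraries (median 31.3) and from 25.2 to 31.5 in labelled LPS libraries (median 30.0). It was therefore not lower in the labelled mice. Averaged over stimuli it was 0.21 ± 0.05 higher on the log2 scale (SE; adjusted p = 0.0337, edgeR quasi-likelihood test), and which part of the gene the allele alters is not given, so a count over the whole gene does not check the label. All 10 cortical neuron markers were detected in every library.

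Without stimulation, the members ranged in level per kilobase of transcript model from 177 CPM per kilobase for Rab6b to 0.0201 for Rab44 (means of 6 unstimulated control libraries). The 5 highest were Rab6b, Rab3a at 141 ± 4.30 (SD), Rab6a at 124 ± 9.60, Rab2a at 101 ± 2.93 and Rab7 at 87.1 ± 4.17. Rab6a and Rab6b act in Golgi traffic, Rab2a between the endoplasmic reticulum and the Golgi, Rab3a on synaptic vesicles, and Rab7 on late endosomes and lysosomes.

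Levels also differed within roles. They were farthest apart in regulated secretion and synaptic vesicle traffic, from Rab3a down to Rab44, and closest for the SOCS box pair Rab40b and Rab40c at 13.4 and 11.5 CPM per kilobase. Among the early endosome Rabs, Rab5a stood at 44.3 CPM per kilobase, Rab5c at 41.1 and Rab5b at 38.5, whereas Rab20 was at 0.200. Rab5 proteins govern fusion of early endosomes. Rab32, Rab38 and Rab29, which serve lysosome-related organelles such as melanosomes, were all low, at 0.509, 0.149 and 1.498 CPM per kilobase. Rab3d was the lowest of the 4 Rab3 genes at 2.26, against 56.6 for Rab3c and 11.6 for Rab3b. Rab3 proteins take part in regulated exocytosis, and Rab3d is the form best known from secretory granules outside the brain. Rab37, Rab42, Rab32, Rab39, Rab20, Rab38 and Rab44 all stood below 1 CPM per kilobase. Over all libraries the counts ran from 97 to 939 for Rab37, 52 to 139 for Rab32 and 51 to 107 for Rab39. The lowest counts of Rab42, Rab20, Rab38 and Rab44 were 13, 9, 4 and 0, so their values rest on few counts in some libraries. Rab44 had 0 to 11 counts per unstimulated control library.

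**Figure D1:**
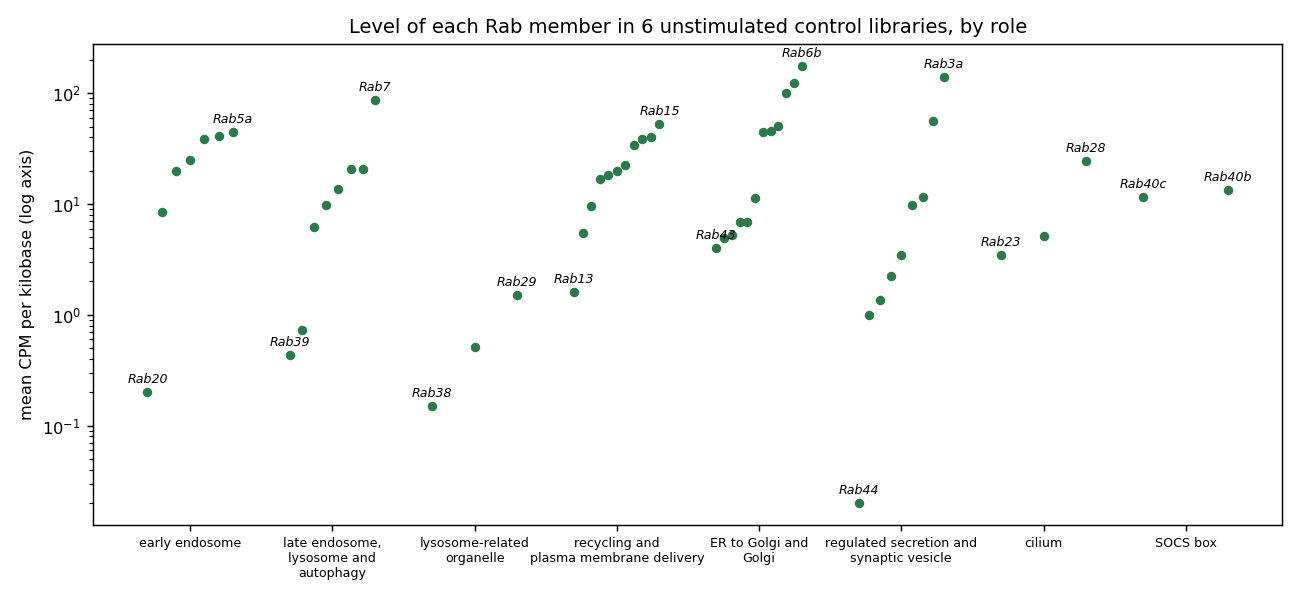
Mean level of each of the 55 Rab members in the 6 unstimulated control libraries, in CPM per kilobase on a log axis, with genes grouped by role on the horizontal axis and the lowest and highest gene of each role named. Rab6b (177) and Rab3a (141) are at the top and Rab44 (0.0201) at the bottom.

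Most members varied little between animals of a group. The SD of log2 CPM pooled over the 4 groups had a median of 0.083 over the members, beside 0.142 over all 21891 genes tested. Genes of like count level were not compared, and Rab38 and Rab42, members with few counts, stood at 0.48 and 0.39. Rab5b was the steadiest at 0.034, and Rab44, Rab37 and Rab20 the most variable at 0.82, 0.75 and 0.58. Rab44 had at most 16 counts in any library. For Rab20 the SD was largest in the labelled mice given LPS, at 0.89, where 1 library stood far below the other 5. Rab37 ran from 2.14 to 14.4 CPM over the 24 libraries.

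LPS in control mice addressed which Rab transcripts change after injection of this immune stimulus. Of the 55 members, 7 rose and 1 fell (adjusted p under 0.05), which is 14.5% of them beside 17.1% of all genes tested. Separately by direction, 9.24% of all genes rose and 7.88% fell. The share of Rab genes called was thus close to the background. The counts by role below are to be read beside the same 17.1%, and no role was tested as a set. Rab20, Rab32, Rab31, Rab8b, Rab9b, Rab40c and Rab2b rose, and Rab3d fell. The other 47 were not called, and the median change over all 55 was 0.03 on the log2 scale, beside 0.01 over all genes.

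Among the early endosome Rabs, 2 of 7 rose. Rab20, which is known for endosome and phagosome maturation in macrophages, ran from 0.163 to 0.537 CPM without LPS (median 0.260) and from 1.93 to 3.57 with it (median 2.497). All 6 LPS libraries were above all 6 unstimulated ones. Here and below, such gaps are seen in genes called on the same libraries, so they add no support to the calls. The share of all genes with such a gap was not counted. The log2 fold change was 3.19 ± 0.32 (SE), a fold of 9.12 with a 95% interval of 5.79 to 14.4 (adjusted p = 2.03e-08, edgeR quasi-likelihood test). In raw counts the unstimulated libraries held as few as 9 reads and the LPS libraries 104 to 222. Rab20 lies on chromosome 8 (11453392 to 11478638, minus strand, mm10), and its exons overlap those of E230013L22Rik on the opposite strand. Of its 50-base sequences 22.9% are shared with other genes, most often with E230013L22Rik. That gene rose too, by 2.99 ± 0.35 (adjusted p = 1.25e-07), from a median of 7.5 counts to 63.5, and without a stated strand setting of the counting the reads of the pair cannot be told apart.

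Rab31, which acts in traffic between the trans-Golgi network and endosomes, ran from 65.8 to 73.0 CPM without LPS (median 70.2) and from 88.7 to 106 with it (median 101). Here too the groups did not overlap. The change was 0.50 ± 0.05, or 1.41-fold (adjusted p = 1.05e-09), and Rab31 overlaps no exon of another gene. Rab5c and Rab22a, an early endosome Rab, were not called (0.09 ± 0.04 and -0.11 ± 0.04, adjusted p = 0.0807 and 0.0633).

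The bases upstream of the members that moved are shown for the pair with the most significant rises and for the member that fell, because these had the smallest adjusted p-values of the family. Each line holds the 250 bases before the RefSeq start of the gene (GRCm38.p6, the same build as mm10), 5′ to 3′ on the strand of the gene, and capitals mark the only match of 5 searched patterns. Rab20 is chr8:11478641-11478890, Rab31 chr17:65772753-65773002 and Rab3d chr9:21918184-21918433, all on the minus strand.
Rab20: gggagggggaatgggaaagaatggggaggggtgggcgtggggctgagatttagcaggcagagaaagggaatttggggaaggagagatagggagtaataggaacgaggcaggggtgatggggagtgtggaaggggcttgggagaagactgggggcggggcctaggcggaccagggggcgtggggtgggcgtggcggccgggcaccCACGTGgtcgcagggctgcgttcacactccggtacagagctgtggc
Rab31: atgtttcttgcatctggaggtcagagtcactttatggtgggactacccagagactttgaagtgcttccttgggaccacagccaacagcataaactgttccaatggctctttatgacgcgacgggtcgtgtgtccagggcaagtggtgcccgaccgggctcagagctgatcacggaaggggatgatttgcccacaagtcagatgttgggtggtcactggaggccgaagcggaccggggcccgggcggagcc
Rab3d: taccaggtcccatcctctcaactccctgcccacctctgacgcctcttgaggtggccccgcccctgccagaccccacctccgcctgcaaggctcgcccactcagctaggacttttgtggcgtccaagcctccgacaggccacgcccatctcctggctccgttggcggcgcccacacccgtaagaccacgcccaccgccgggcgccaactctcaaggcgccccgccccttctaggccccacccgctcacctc

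The patterns were searched on both strands in the upstream bases of the 44 members with an entry in the RefSeq table. The E-box CACGTG occurs in Rab20, from 46 to 41 bases before the start, in 5 of the 44 members and in 6.02% of 32851 promoters. Of those 5 members, Rab20 is the only one called under LPS. None of the 8 genes called under LPS in control mice held the other 4 patterns. These were an NF-kB pattern of GGG and TTTCC with any 2 bases between (1.41% of promoters), an interferon response pattern of TTTC and TTTC with any 2 bases between (2.98%), the STAT pattern TTCNNNGAA (7.02%) and the AP-1 pattern TGANTCA (6.75%). In the same order 3, 0, 3 and 2 of the 44 members held them. At such rates the lack of a match in 8 genes shows little. All these matches are plain text. These are letters in a window of 250 bases and say nothing of binding. The upstream bases of the members had a median GC content of 60.6% beside 52.4% over all promoters.

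Late endosomal, lysosomal and autophagic Rabs gave 1 call in 8. Rab9b, of the Rab9 pair that returns receptors from late endosomes to the Golgi, ran from 22.6 to 28.3 CPM without LPS (median 24.6) and from 25.5 to 31.5 with it (median 29.3). The groups overlapped, and the change was 0.23 ± 0.07 (adjusted p = 0.0230). The call did not hold without control LPS replicate 3 or 4, or without unstimulated control replicate 3, 4 or 5 (adjusted p between 0.0509 and 0.0634). Rab7, Rab9, Rab12, Rab24, Rab39, Rab39b and Rab42 were not called, with changes between -0.12 and 0.30.

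Of the 3 Rabs of lysosome-related organelles, Rab32 rose. It ran from 1.004 to 1.21 CPM without LPS (median 1.03) and from 1.37 to 2.14 with it (median 1.60), with no overlap. The change was 0.65 ± 0.15, or 1.57-fold (adjusted p = 0.00178). Rab38 and Rab29 changed by 0.06 and -0.06 and were not called.

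Recycling and plasma membrane delivery was represented by 11 genes, of which Rab8b alone was called. Rab8b, which carries cargo from the Golgi and recycling endosomes to the cell surface, ran from 40.3 to 50.6 CPM without LPS (median 45.2) and from 49.8 to 56.9 with it (median 55.5). The highest unstimulated library reached into the LPS range, and the change was 0.27 ± 0.05 (adjusted p = 1.67e-04). The recycling Rabs proper, among them Rab4a, Rab4b, Rab11a and Rab11b, were not called, and the 10 genes other than Rab8b changed by -0.11 to 0.23.

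Among the 12 Rabs of the early secretory pathway, Rab2b rose by 0.13 ± 0.03 (adjusted p = 0.00518). Its libraries ran from 28.0 to 29.6 CPM without LPS (median 28.6) and from 30.3 to 32.6 with it (median 31.5). The groups did not overlap although the change was 1.097-fold. Of the 50-base sequences of Rab2b 57.0% are shared with other genes, most often with Gm43766 on the opposite strand, which is not in the table. The exons of Rab2b also overlap Tox4, which did not pass the test (0.00 ± 0.04, adjusted p = 0.964). The other 11 changed by -0.10 to 0.11.

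In regulated secretion and synaptic vesicle traffic, 1 of 9 members was called and it fell. Rab3d ran from 8.88 to 10.1 CPM without LPS (median 9.56) and from 6.09 to 8.25 with it (median 6.89), with no overlap. The change was -0.45 ± 0.07, a fall to 0.732 of the unstimulated level (adjusted p = 2.27e-05). The neuronal forms were not called: Rab3a changed by -0.02, Rab3b by -0.03 and Rab3c by 0.10. Rab27a and Rab27b, which dock secretory granules, were not called either.

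Rab40c and Rab40b carry a SOCS box, by which they join ubiquitin ligase complexes. Rab40c ran from 34.1 to 36.5 CPM without LPS (median 35.9) and from 40.4 to 42.1 with it (median 41.6), with a clear gap between the groups. It rose by 0.22 ± 0.04 (adjusted p = 6.24e-05), while Rab40b at 0.04 was not called. None of the 3 cilium Rabs, Rab23, Rab28 and Rab34, was called.

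**Figure D2:**
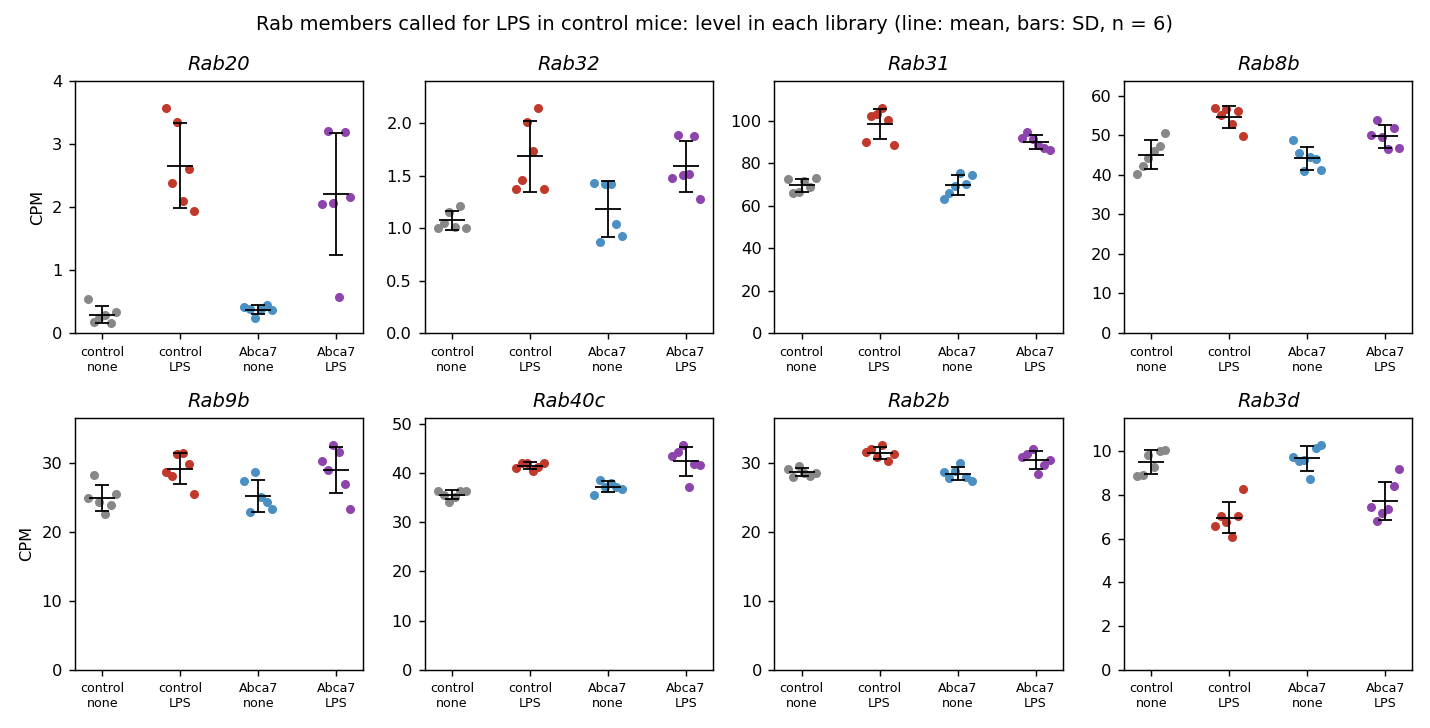
Level in CPM of the 8 Rab genes called for LPS in control mice, 1 panel per gene with its axis from 0 and 1 point per library; lines are means and bars SD of 6 libraries in each of the 4 groups. Rab20, Rab31, Rab32, Rab40c and Rab2b of LPS control libraries lie wholly above and Rab3d wholly below the unstimulated control libraries. The genes shown were picked by their calls on these libraries.

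Levels of other cells' markers moved with LPS as well. The summed level of 6 microglial markers ran from 224 to 238 CPM in unstimulated control libraries and from 153 to 170 with LPS, and all 6 markers fell. Of 6 endothelial markers 5 fell and 1 rose. In bulk tissue, fewer cells of a type and less RNA per cell cannot be told apart. The 6 choroid plexus markers summed to between 14.6 and 297 CPM without LPS and between 190 and 544 with it, and 3 of them rose. Among 6 neutrophil markers only 2 could be tested and both rose, with their sum between 0.178 and 0.415 CPM without LPS and between 0.891 and 2.35 with it, and Ly6g was at 0 in every control library. Of the 5 monocyte markers tested 3 rose, as did 4 of 6 astrocyte markers and 1 of 6 oligodendrocyte markers, and 4 of 10 cortical neuron markers fell. The part of these cells in the Rab changes was not tested, apart from the choroid plexus: with the level of Ttr, its most abundant marker, as a covariate, 3 of the 8 calls were left (Rab20 at 2.93, Rab31 at 0.43 and Rab8b at 0.37), and 1616 genes were called over the whole table in place of 3748. The other 5 kept their direction, with Rab32 at 0.66 ± 0.23, Rab3d at -0.32 ± 0.10, Rab9b at 0.17 ± 0.10, Rab40c at 0.16 ± 0.05 and Rab2b at 0.13 ± 0.05. Ttr itself was not called for LPS in these mice, but its mean was 53.1 CPM without LPS and 284 with it. The covariate and the stimulus thus overlap in this fit, and a lost call does not show a part of the choroid plexus.

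The age of the mice differed between groups, and the 3 members with the smallest adjusted p are given here by age. At 56 days, Rab31 averaged 68.2 CPM in 3 unstimulated and 103 in 3 LPS control libraries, and at 55 days 70.9 and 89.4 in 2 and 2. Rab20 averaged 0.316 and 2.36 CPM at 56 days and 0.249 and 2.75 at 55 days. For Rab3d the means were 9.21 and 6.72 at 56 days, and 10.03 and 7.42 at 55 days. With age as a factor 9 members were called, these 8 and Rab5c (adjusted p = 0.0416).

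LPS in the mice labelled Abca7 changed 5 of 55 members, 4 higher and 1 lower. This is 9.09%, beside 11.8% of all genes tested, and 6.64% of all genes rose and 5.18% fell. All 5 were also called in control mice. The labelled and control mice are separate animals, so the groups compared have no library in common. Both comparisons came from 1 fit over all 24 libraries with a shared spread and scaling, so they are not independent. The choice of members was also made with both known.

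Rab20 ran from 0.233 to 0.449 CPM without LPS in the labelled mice (median 0.381) and from 0.569 to 3.21 with it (median 2.11). The groups did not overlap, but labelled LPS replicate 4 at 0.569 stood far below the other 5, which lay between 2.05 and 3.21. The change was 2.58 ± 0.31, or 5.97-fold with an interval of 3.82 to 9.32 (adjusted p = 7.59e-07). Without that library it was 2.77. E230013L22Rik rose by 1.82 ± 0.33 (adjusted p = 1.77e-04).

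Rab31 ran from 63.3 to 75.5 CPM without LPS (median 69.9) and from 86.4 to 94.6 with it (median 90.02), with no overlap. It rose by 0.37 ± 0.05 (adjusted p = 5.62e-07). Rab40c ran from 35.5 to 38.7 CPM (median 37.2) and from 37.3 to 45.8 (median 42.7), and rose by 0.19 ± 0.04 (adjusted p = 6.27e-04). Its lowest LPS library, replicate 4, lay within the unstimulated range. Rab3d ran from 8.70 to 10.3 CPM without LPS (median 9.67) and from 6.82 to 9.16 with it (median 7.39), overlapping in part. It fell by 0.32 on the log2 scale (SE 0.07, adjusted p = 0.00201).

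Rab8b ran from 41.0 to 48.8 CPM without LPS (median 44.3) and from 46.5 to 53.7 with it (median 49.8), and rose by 0.17 ± 0.05 (adjusted p = 0.0239). That call did not hold without labelled LPS replicate 2 or 5 or without unstimulated labelled replicate 3 or 6 (adjusted p between 0.0581 and 0.0766). Rab32, Rab2b and Rab9b, called in control mice, did not pass here: their changes were 0.43 ± 0.15, 0.10 ± 0.03 and 0.20 ± 0.07 (adjusted p = 0.0600, 0.0628 and 0.0700). Single libraries decided these calls. Rab32 passed without labelled LPS replicate 6 or unstimulated labelled replicate 1, 3 or 4 (adjusted p between 0.0357 and 0.0448). Rab2b passed without labelled LPS replicate 4 or unstimulated labelled replicate 4 (adjusted p = 0.0231 and 0.0373), and Rab9b without labelled LPS replicate 6 or unstimulated labelled replicate 3 (adjusted p = 0.00727 and 0.0256).

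In the labelled mice the microglial markers summed to between 226 and 242 CPM without LPS and between 153 and 188 with it, and 6 of 6 fell. Of 6 endothelial markers 5 fell and 1 rose, both neutrophil markers tested rose, and 2 of 5 monocyte and 2 of 6 astrocyte markers rose, while 2 of 10 cortical neuron markers fell. Choroid plexus markers ran from 60.9 to 498 CPM without LPS and from 36.0 to 429 with it, and none was called. With Ttr as a covariate the same 5 Rab genes were called in these mice.

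**Figure D3:**
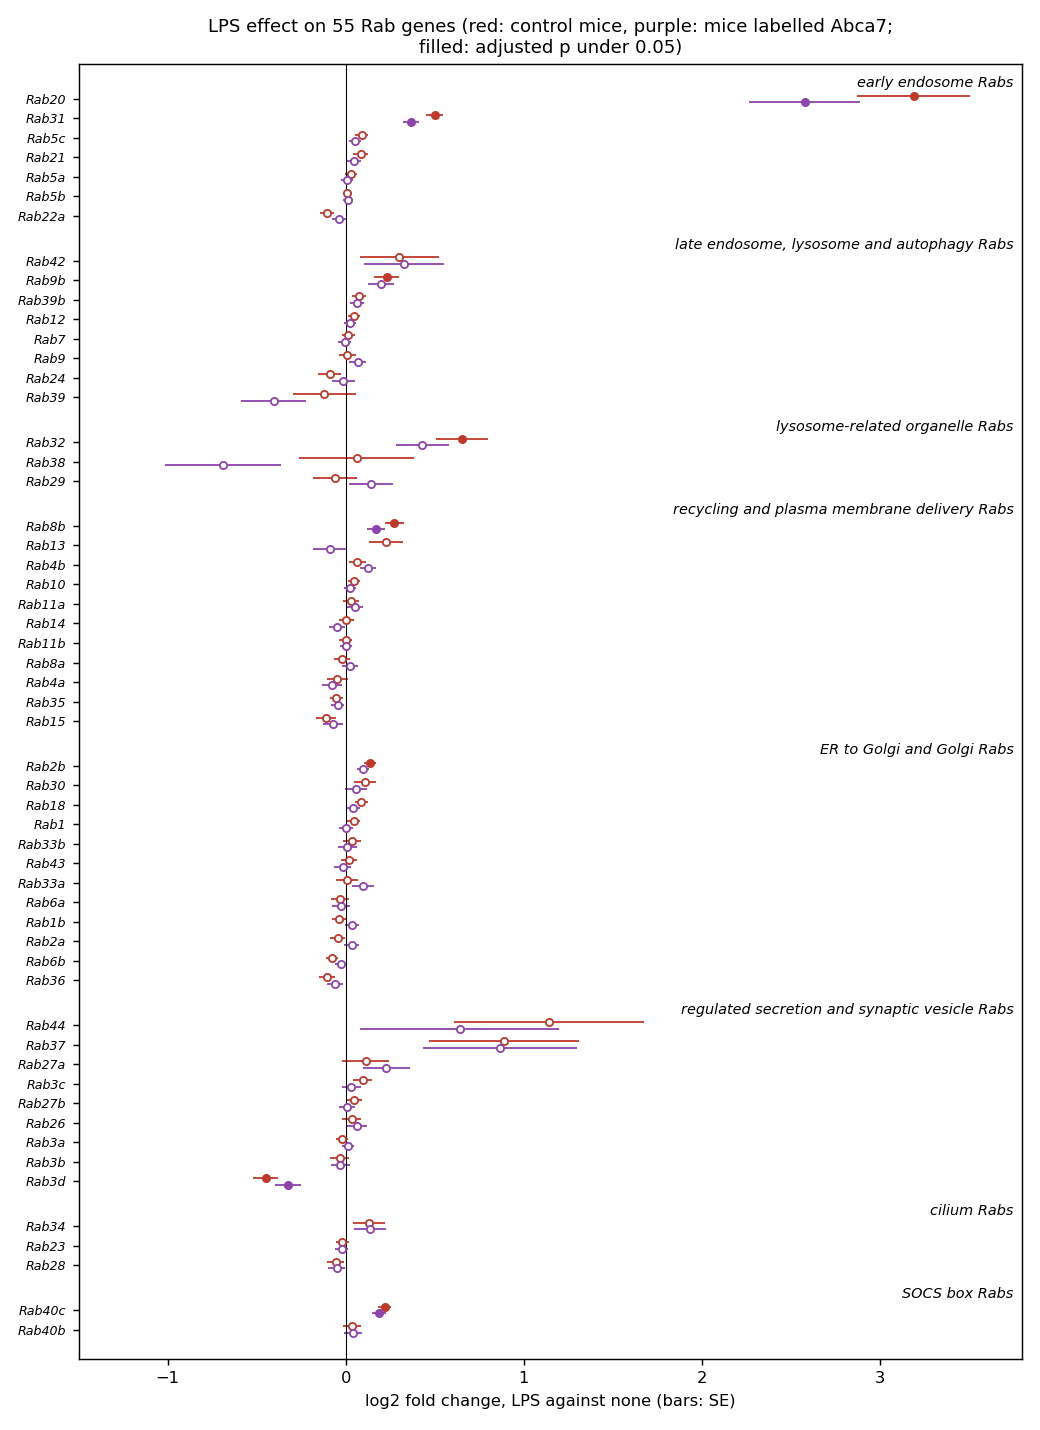
Log2 fold change (horizontal axis) of LPS against no stimulus for each of the 55 Rab genes, grouped by role, in control mice (red) and mice labelled Abca7 (purple), with bars of 1 SE and filled points for adjusted p under 0.05. Rab20 is farthest to the right at 3.19 and 2.58, and most genes sit near 0.

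Closely related Rab genes were compared as log2 ratios within each library, which does not depend on library scaling. For 20 pairs in both genotypes, 40 exact permutation tests were made, and 11 passed after Benjamini-Hochberg adjustment over the 40, 8 of them in control mice and 3 in labelled mice. All of these except Rab5b with Rab5c hold a gene called above in the same libraries, so they are no separate support for those calls. The ratios with Rab3d also have that gene in common. Pairs of other genes were not tested. Rab3d lost ground to each of the other 3 Rab3 genes in both: in control mice the ratio of Rab3a to Rab3d rose by 0.43 on the log2 scale, from a mean of 5.04 to 5.47, that of Rab3b to Rab3d by 0.41 and that of Rab3c to Rab3d by 0.55 (exact permutation adjusted p = 0.0144 each, n = 6 per group). In labelled mice these rises were 0.34, 0.30 and 0.36 (exact permutation adjusted p = 0.0144, 0.0216 and 0.0394).

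The other 5 called pairs were called in control mice. Rab8b gained on Rab8a by 0.30, Rab9b on Rab9 by 0.22, Rab40c on Rab40b by 0.18, Rab2b on Rab2a by 0.18 and Rab5c on Rab5b by 0.08 (exact permutation adjusted p = 0.0144, 0.0260, 0.0260, 0.0144 and 0.0216). In labelled mice the same ratios moved by 0.15, 0.12, 0.14, 0.06 and 0.04 in favour of the same gene and did not pass. Whether these ratio changes differ between genotypes was not tested. The ratio of Rab6a to Rab6b shifted by 0.04 in control mice and 0.00 in labelled mice, that of Rab5a to Rab5b by 0.02 and -0.01, and that of Rab11a to Rab11b by 0.03 and 0.05, and none of these passed.

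**Figure D4:**
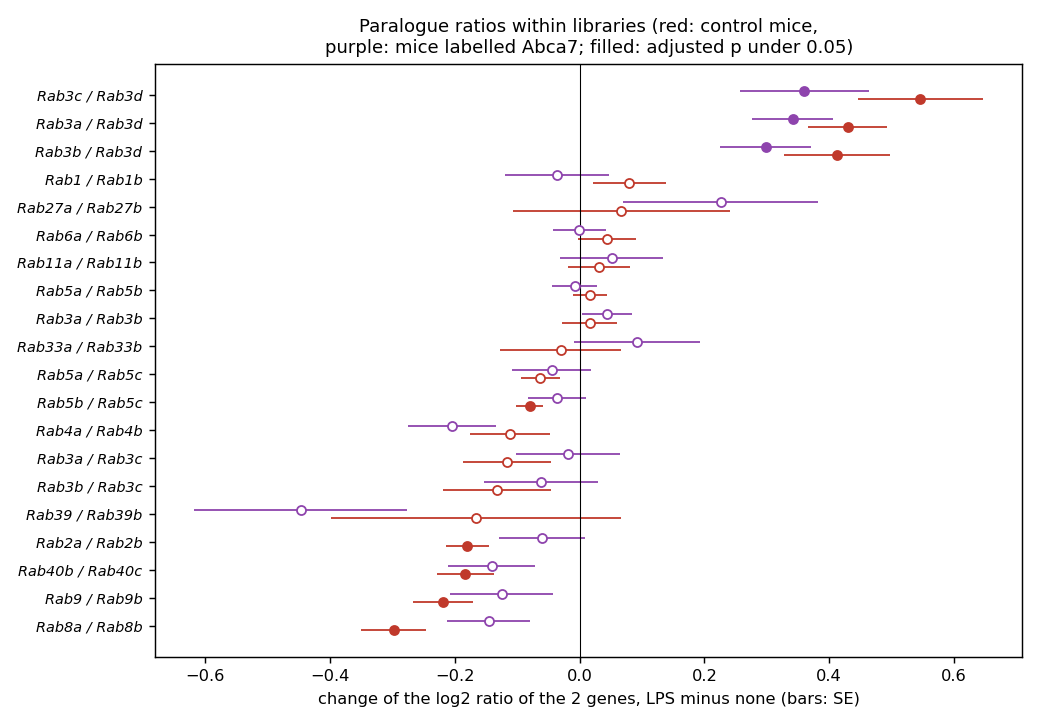
Change of the log2 ratio of 2 related Rab genes (horizontal axis, LPS minus none) for 20 pairs, in control mice (red) and mice labelled Abca7 (purple), with bars of 1 SE over 6 and 6 libraries and filled points for an adjusted exact permutation p under 0.05. The 3 pairs with Rab3d as second gene are at the top, at 0.41 to 0.55 in control mice.

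The summed level of all 55 members did not differ with LPS beyond the spread between libraries. It averaged 5062 ± 178 CPM (SD, n = 6) in unstimulated and 5093 ± 130 in LPS control libraries (exact permutation p = 0.716), and 4967 ± 51.4 and 5003 ± 90.6 in labelled mice (exact permutation p = 0.429).

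The genotype comparison asked whether mice labelled Abca7 differ in Rab transcripts. Choroid plexus content was uneven between these groups. The median marker sum was 25.0 CPM in unstimulated control and 438 in unstimulated labelled libraries, and 288 and 301 under LPS. Without LPS 5 of the 6 markers had an unadjusted p under 0.05 by edgeR, and none was called. With Ttr level as a covariate no member was called for genotype. No member was called by edgeR without LPS, where 0.0365% of all genes tested passed, or under LPS, where 0% passed. At an unadjusted p under 0.05 there were 2 members without LPS and 8 under it, beside 1374 and 1708 of all 21891 genes, and DESeq2 called none in either, though it gave no adjusted p to 2 and 7 members. Averaged over stimuli, with 12 libraries against 12, edgeR again called none, beside 0.265% of all genes. At an unadjusted p under 0.05 there were 6 members, beside 2363 of all 21891 genes. DESeq2 called Rab36, as 1 of 300 genes that it called over the whole table.

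Rab36, a Golgi Rab that also acts in the positioning of late endosomes and lysosomes, came nearest. It ran from 28.8 to 32.7 CPM in unstimulated control libraries (median 30.1) and from 30.1 to 34.8 in unstimulated labelled ones (median 32.7). Under LPS it ran from 26.2 to 31.1 in control (median 28.2) and from 29.3 to 33.6 in labelled libraries (median 31.3). The groups overlapped at both stimuli. The averaged difference was 0.12 ± 0.03, or 1.09-fold (adjusted p = 0.0961 by edgeR and 0.0283 by DESeq2). Without control LPS replicate 6, edgeR gave an adjusted p of 0.0386, in a fit that called 127 genes in place of 58. Rab36 lies on chromosome 10 (75037058 to 75054748), 4.94 megabases from Abca7, and is the nearest of the 4 members on that chromosome. The other 3, Rab5b, Rab21 and Rab32, differed by -0.01, -0.05 and 0.02.

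Rab30 and Rab26 followed, at -0.14 ± 0.04 and 0.12 ± 0.04 (adjusted p = 0.163 and 0.196). Rab30 is a Golgi Rab and Rab26 marks secretory granules and synaptic vesicles bound for autophagy. Of the genes that LPS moved, Rab20 differed between genotypes by 0.04 with a 95% interval from -0.42 to 0.51, Rab31 by -0.06 (-0.13 to 0.00) and Rab3d by 0.09 (-0.01 to 0.19), averaged over stimuli.

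The intervals set bounds on what could have been missed. Averaged over stimuli, the 95% interval of the genotype difference lay within 1.2-fold in either direction for 48 of 55 members, within 1.5-fold for 53 and within 2-fold for all 55. Rab37 and Rab44 were the 2 that went beyond 1.5-fold. Within a single stimulus the intervals lay within 1.5-fold for 51 members without LPS and 51 under LPS. The summed level of the members did not differ by genotype beyond the spread either (exact permutation p = 0.284 without LPS and 0.184 under it, n = 6 per group).

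**Figure D5:**
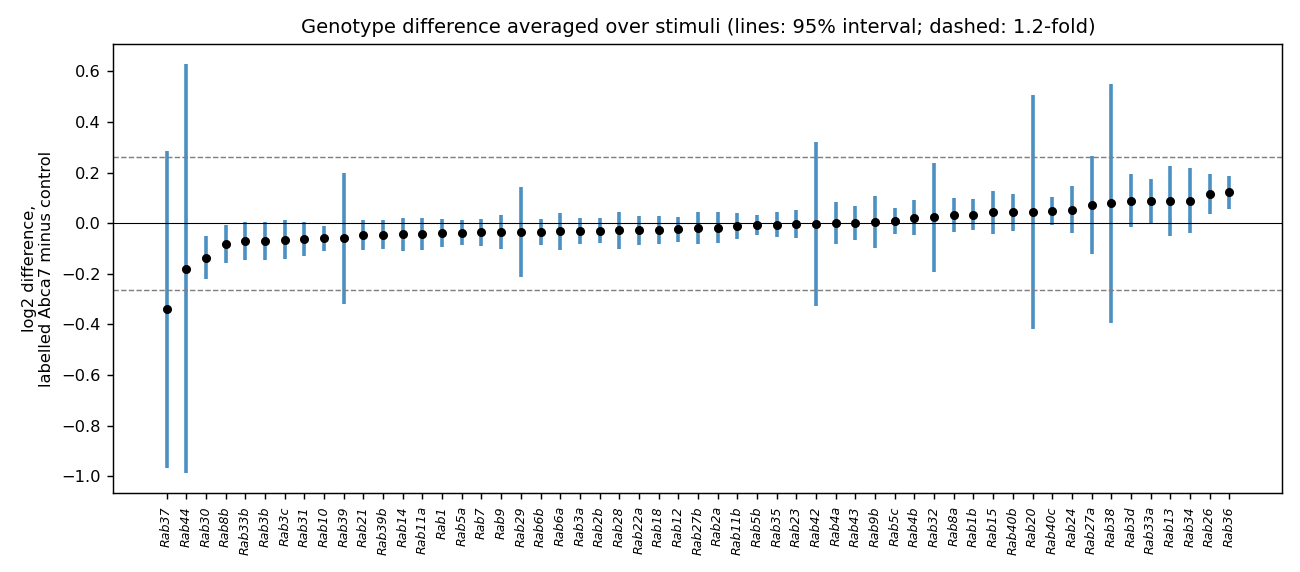
Genotype difference of each of the 55 Rab genes averaged over stimuli (vertical axis, log2, labelled Abca7 minus control), ordered by size, with 95% intervals as vertical lines and dashed lines at 1.2-fold. The widest intervals are those of Rab37 and Rab44, and Rab36 is farthest to the right at 0.12.

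The interaction, that is the LPS effect in labelled mice minus that in control mice, was tested for each gene. It called no member by edgeR or DESeq2, and 0% of all genes passed. An unadjusted p under 0.05 was seen for 2 members, beside 698 of all 21891 genes. It was also seen for 5 of the 6 choroid plexus markers, none of them called. With Ttr level as a covariate the interaction called no member either. Rab13, which acts at cell junctions, was called for LPS in neither genotype. Its median was 2.79 CPM without and 3.08 with LPS in control mice, and 3.22 and 2.98 in labelled mice, an interaction of -0.32 ± 0.14 (adjusted p = 0.9999). Rab31 had an interaction of -0.13 ± 0.07 (adjusted p = 0.9999). For Rab20 it was -0.61 ± 0.46, with an interval from -1.55 to 0.33, which includes a response lower by 1 log2 unit. The lower count of calls in labelled mice, 5 against 8, is therefore no tested difference between genotypes.

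Genes that operate the Rab cycle were counted from lists drawn up by their known function. None of the 8 genes for prenylation of Rabs and their retrieval from membranes was called for LPS in either genotype. Of 38 exchange factors, 5 rose and 5 fell in control mice, which is 26.3% beside 17.1% of all genes, and 5 rose and 4 fell in labelled mice, 23.7% beside 11.8%. Those that rose in both included Dennd3 (0.87 ± 0.13 and 0.77 ± 0.13), an exchange factor for Rab12, Rab3il1 (0.55 ± 0.09 and 0.65 ± 0.09), one for Rab8 proteins, and Rin2 (0.52 ± 0.08 and 0.34 ± 0.08), one for Rab5 proteins. Ankrd27, of the same list, fell by 0.22 in control and by 0.15 in labelled mice (adjusted p = 7.38e-05 and 0.00701).

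Among 37 table entries for GTPase-activating proteins, of which 2 carry the symbol Sgsm3, 1 rose and 6 fell in control mice, 18.9% beside 17.1% of all genes, and 1 rose and 3 fell in labelled mice, 10.8% beside 11.8%. Tbc1d1, which acts on Rab8, Rab10 and Rab14, rose (0.28 ± 0.05 and 0.21 ± 0.05). Tbc1d2, which acts on Rab7, changed by -0.58 ± 0.12 and -0.46 ± 0.12. Tbc1d30, which acts on Rab8, and Sgsm2, which acts on Rab32 and Rab38, fell in control mice by 0.18 and 0.15. In labelled mice they stood at -0.13 ± 0.05 and -0.12 ± 0.04 and were not called (adjusted p = 0.0965 and 0.0777).

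Of 43 table entries for effectors, of which 2 carry the symbol Mical3, 1 rose and 10 fell in control mice, and 1 rose and 6 fell in labelled mice. This is 25.6% and 16.3%, beside 17.1% and 11.8% of all genes, while 7.88% and 5.18% of all genes fell. Exph5, a Rab27 effector, changed by -0.51 ± 0.09 and -0.47 ± 0.09, Fyco1, a Rab7 effector, by -0.22 ± 0.04 and -0.22 ± 0.04, Mical1, an enzyme that oxidizes actin, by -0.32 ± 0.07 and -0.24 ± 0.07, and Appl2, a Rab5 effector, by -0.18 ± 0.05 and -0.19 ± 0.05. The effector that rose was Micall2, which binds Rab13, at 0.68 ± 0.21 and 0.97 ± 0.21 (adjusted p = 0.0204 and 0.00156), and it is named after its values were seen. The exons of Tbc1d30, Fyco1 and Mical1 each overlap those of another gene.

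Lrrk1 and Lrrk2, kinases that phosphorylate Rab proteins, both fell. Lrrk1 changed by -0.62 ± 0.12 in control and -0.77 ± 0.12 in labelled mice, and Lrrk2 by -0.31 ± 0.08 and -0.28 ± 0.08 (adjusted p = 1.86e-04, 1.60e-05, 0.00497 and 0.0173). The phosphatase of the same list, Ppm1h, was not called. The share called was 66.7% in each genotype, in a list of only 3 genes, beside 17.1% of all genes in control and 11.8% in labelled mice. Of 13 genes of the tethering complexes HOPS and CORVET and of retromer, Vps39 alone rose in control mice (0.13 ± 0.03, adjusted p = 8.46e-04). This is 7.69%, below the 17.1% of all genes, and none was called in labelled mice. In these 6 lists no gene was called by edgeR in any genotype comparison or in the interaction. Microglial markers fell beside these genes in both genotypes, as given above, and their part was not tested.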

How the data were processed

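The authors deposited a table of raw gene counts, which are unnormalized whole numbers, with gene symbols, coordinates and lengths. Per the series design text, sequencing was on an Illumina HiSeq 4000 and the counts came from MAP-RSeq 2.1.1; STAR 2.5.2b was the aligner and mm10 the genome, per the submitters' processing notes. The strand setting, the annotation release and the handling of multiply matching reads were not stated in the sources read here.

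The members and all gene lists were chosen with earlier results of these data known. Members are genes whose symbol is Rab, a number and at most 1 letter, with 10 or more counts in at least 6 libraries. Every member called in any comparison is named with values, the rest by range and count, and up to 4 called genes per regulator list by smallest adjusted p in control mice; Micall2 was added after its values were seen. Groups follow the genotype and stimulus labels, and replicate numbers only name libraries.

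Genes were filtered with filterByExpr by group (21891 kept, all 55 members among them) and scaled by TMM. A single edgeR 4.0.16 fit in R 4.3.3 held all 24 libraries with 1 coefficient per group. Robust quasi-likelihood F tests were two-sided for 6 contrasts, adjusted by Benjamini-Hochberg across the tested genes at a threshold of 0.05. Adjusted p-values come from this test unless another is named, and ± after a log2 fold change is its standard error. Log2 CPM uses a prior count of 2. Single values were compared with two-sided exact permutation tests, whose smallest p is 0.00216 for 6 against 6. Levels per kilobase use the deposited gene length. The fit was tested on simulated counts. Shared 50-base sequences and exon overlaps were computed with GENCODE M21, on the same build. Over all other genes together, 6 members share over 20% of such sequences (Rab43, Rab4b, Rab2b, Rab24, Rab20 and Rab33b), so their counts are uncertain. DESeq2 1.42.0, RLE factors, no low-count filter, only the groups compared, age, Ttr level, removal of ribosomal RNA repeat genes, leaving out each library and a non-robust fit (the last added after the data were seen) were the alternatives. Depth is 48149131 to 75741388 counts per library; a member with few counts is limited by counting error as well as by the spread between mice.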

Additional observations from a re-analysis of the deposited data

Results flagged for a closer look

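Rab20 was marked in both groups of labelled mice because 1 library stood far from the other 5 of its group. In labelled LPS replicate 4 it was 0.569 CPM, against 2.05 to 3.21 CPM in the others. In unstimulated labelled replicate 3 it was 0.233 CPM, against 0.365 to 0.449 CPM. Over all 55 members and 4 groups the same criterion marked 13 of 220 sets of 6 libraries, where chance marks about 5%.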

How the results depend on the processing

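Of the LPS calls in control mice, 3 in place of 8 were left with Ttr level as a covariate (Rab20, Rab31 and Rab8b). Under that setting the adjusted p was 0.0511 for Rab3d, 0.0707 for Rab40c, 0.0770 for Rab32, 0.153 for Rab2b and 0.440 for Rab9b. The other settings gave 8 or 9 calls, with all 8 among them. RLE factors and DESeq2 added Rab22a and age added Rab5c. Leaving out 1 library gave 7 to 11. In labelled mice the settings gave 5 or 6 calls, age adding Rab38 (adjusted p = 0.0484), and leaving out 1 library gave 4 to 7. The genotype difference averaged over stimuli gave 1 call with DESeq2 and 0 to 1 when 1 library was left out, in each case Rab36. No setting called a member for genotype at a single stimulus or for the interaction, and none reversed a called change. The cause of these shifts was not tested. Restricting the fit to the groups compared was not applicable to the averaged difference and the interaction. No paired analysis was possible because the replicate numbers were given in accession order. Members with few counts, such as Rab44 and Rab38, have intervals too wide to exclude a 1.5-fold LPS change.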

Other observations

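Rab37, a Rab of secretory granules, was among the most variable members, and within the groups of labelled mice its level varied with that of thalamic markers by Pearson's r, a relation that did not pass after adjustment in either control group. It ran from 2.43 to 12.03 CPM in unstimulated control libraries and from 4.18 to 14.4 with LPS, and from 2.14 to 7.94 and 3.17 to 11.4 in labelled mice. LPS changed it by 0.89 ± 0.42 and 0.86 ± 0.43 on the log2 scale, and neither was called (adjusted p = 0.167 and 0.237). Without unstimulated control replicate 1, the library at 12.03 CPM, it was called in control mice (adjusted p = 0.0269), and with Ttr level as a covariate the change there was -0.28 ± 0.48. By age, control mice averaged 4.57 CPM without and 4.67 with LPS at 55 days (2 and 2 libraries), and 6.005 and 13.1 at 56 days (3 and 3). The 5 thalamic markers (Tcf7l2, Lef1, Prkcd, Rora and Plekhg1) summed to between 145 and 270 CPM, 195 and 342 CPM, 129 and 238 CPM, and 138 and 280 CPM in the 4 groups, in the same order. None of the 5 was called for LPS.

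This relation was examined within each group of 6 libraries, with exact permutation p-values adjusted over 8 relations (2 marker lists in 4 groups). Against the thalamic sum, Pearson's r was 0.90 (exact p = 0.0389, adjusted 0.0778) in unstimulated control, 0.84 (exact p = 0.0528, adjusted 0.0778) in control LPS, 0.99 (exact p = 0.00556, adjusted 0.0222) in unstimulated labelled and 0.99 (exact p = 0.00278, adjusted 0.0222) in labelled LPS libraries. Spearman's rho was 0.66, 0.77, 0.94 and 1.0 in the same order (exact p = 0.175, 0.103, 0.0167 and 0.00278, adjusted 0.233, 0.206, 0.0667 and 0.0222). Without the 2 libraries farthest from the median sum, r was 0.96, 0.77, 0.98 and 0.95 over 4 libraries. Against the 6 oligodendrocyte markers, r was 0.54, 0.88, 0.97 and 0.88 (exact p = 0.275, 0.0722, 0.0111 and 0.0583, adjusted 0.275, 0.0825, 0.0296 and 0.0778), and -0.52, -0.28, 0.84 and 0.57 without 2 libraries, so in control mice, where it did not pass, that relation rests on those libraries. The members of the family other than Rab37 were not examined in this way, and Rab37 was chosen after its spread was seen.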
